A study of Mus musculus with 11 samples.

Results

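The genes described here are 49 genes of DNA double-strand break repair, measured by RNA sequencing across 11 libraries of the WFU3 line, which is derived from epithelial stem cells of the mouse prostate. The members were chosen by symbol from a list covering homologous recombination, the Fanconi anaemia genes, end joining and the checkpoint kinases, without a rule on their values, though with earlier results of these data known. All 49 symbols were found among the 48299 rows of the count table, and all 49 were among the 14346 genes that passed the filter on low counts. The series compared cells carrying short hairpin RNAs (shRNAs) against Map3k7, which encodes the kinase TAK1, against Chd1, which encodes a chromatin remodelling ATPase, against both, or control hairpins only. The 4 shDouble libraries came from Map3k7 clone 1 (replicates 1 and 2, passage 49) and Map3k7 clone 7 (replicates 3 and 4, passage 48), each with Chd1 construct 96526 (replicates 1 and 3) or 96528 (replicates 2 and 4). The 2 shMap3k7 libraries were the same clones with a control hairpin in place of the Chd1 hairpin, clone 1 at passage 49 (replicate 1) and clone 7 at passage 47 (replicate 2). The 2 shChd1 libraries carried construct 96526 (replicate 1, passage 52) or 96528 (replicate 2, passage 50) in control clone 4. The 3 shControl libraries were an unnumbered line with puro and neo control hairpins at passage 30 (replicate 1), control clone 4 at passage 52 (replicate 2) and control clone 5 at passage 52 (replicate 3). For the numbered clones, the EGFP-marked Map3k7 or control hairpin was delivered first and clones were picked with cloning cylinders. The pLKO.1-puro hairpin was then added to the clones, so these libraries carried lentiviral hairpins. The label of shControl replicate 1 names puro and neo control hairpins, but neither GFP nor a clone number. Map3k7 knockdown thus rests on 2 clones and Chd1 knockdown without it on 1 control clone. The labels do not state that the libraries of a group were separate cultures, so p-values measure only the spread between these samples.

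A double-strand break is first bound by sensor complexes, which activate the checkpoint kinase ATM and bear on whether the ends are resected. The checkpoint kinase ATR is activated after resection. Resected ends are coated by replication protein A and passed to the BRCA proteins, which load the strand exchange recombinase, whereas unresected ends are joined directly by Ku, DNA-PKcs and ligase IV. The Fanconi anaemia genes act on crosslinked DNA and feed into the same recombination step, and many recombination genes are transcribed mainly in S and G2 phase. Loss of CHD1 in prostate cells has been linked to altered choice between these routes.

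Total counts ran from 14132371 to 23163709 per library. Map3k7 stood at 39.3 to 42.1 CPM (counts scaled to a common library size by the trimmed mean of M-values) in shDouble, 40.0 and 43.0 CPM in shMap3k7, 138 CPM in both shChd1 libraries and 124 to 140 CPM in shControl. Chd1 was reduced less: libraries with a Chd1 hairpin held 73.5% to 89.7% of the Chd1 level of the library of the same line without one. Chd1 ran from 162 to 221 CPM in Map3k7 clone 1, from 190 to 238 CPM in clone 7 and from 145 to 195 CPM in control clone 4. The highest in each line was the library without a Chd1 hairpin. The shDouble range of Chd1 thus overlapped that of shControl, with shDouble replicate 1 above shControl replicate 2. The luminal keratin gene Krt8 was detected in every library, at 784 to 3938 CPM, whereas the fibroblast gene Lum was at 0 in all 11. The summed level of the 4 tested luminal markers was 7021 to 7491 CPM in shDouble, 7294 to 7460 in shMap3k7, 1516 to 1685 in shChd1 and 2290 to 5339 in shControl. Of the 3 tested fibroblast markers the sum was 3.98 to 5.55 CPM in shDouble, 5.59 to 8.98 in shMap3k7, 117 to 123 in shChd1 and 21.5 to 71.2 in shControl. Trp63, the basal transcription factor gene, was at 0.520 to 2.34 CPM in shDouble, 0.585 and 1.81 in shMap3k7, 18.5 and 20.9 in shChd1 and 5.17 to 12.1 in shControl. It fell in shDouble (-2.90 ± 0.49, edgeR adjusted p = 0.00279) and in shMap3k7 (-3.00 ± 0.66, edgeR adjusted p = 0.0184). Without shControl replicate 1 the basal keratin gene Krt14 ran the other way. It was at 0.52 in shDouble (edgeR adjusted p = 0.0260) and 0.53 in shMap3k7 (edgeR adjusted p = 0.0559), with Trp63 at -2.76 and -2.86. In shChd1 that fit gave Krt14 at -1.39 (edgeR adjusted p = 0.0278) and Trp63 at 1.19 (edgeR adjusted p = 0.328). The summed level of the 3 tested basal markers was 1643 to 2407 CPM in shDouble, 2069 and 2133 in shMap3k7, 566 and 584 in shChd1 and 1383 to 3964 in shControl. shControl replicate 1 stood apart in markers of other cell types: Krt5, a basal keratin, was at 48.9 CPM there and at most 1.93 CPM in the other 10 libraries, and Cdh5, an endothelial cadherin, at 18.1 CPM and at most 0.110 CPM. The part of these markers in the differences below was not tested, and in bulk RNA fewer cells of a type and less RNA per cell cannot be told apart. Whole chromosomes were also shifted by clone: taken over its genes, chromosome 4 sat at a median of 0.30 to 0.32 log2 above the controls in the 3 libraries of clone 1, and at 0.11 in each of the 3 of clone 7. Calls of break repair genes against shControl are given also without replicate 1, and values with chromosomes centred are those of a fit that removes these shifts.

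The break repair genes varied little over the 11 libraries. The median SD of log2 CPM was 0.20 over the 49 genes, against 0.32 over all tested genes. The ratio of the highest to the lowest library ran from 1.22 for Trp53bp1, a chromatin reader that limits end resection, to 3.69 for Rad51b, a paralog of the recombinase. Per kilobase of transcript, Parp1, the sensor of strand breaks, had the highest level in shControl, at 40.8 ± 1.74 CPM per kb (SD, n = 3). No other member reached its range, and the next was Rpa1, a subunit of replication protein A, at 21.3 ± 1.80 CPM per kb. Mre11a, the nuclease of the sensor complex, at 18.4 ± 0.761 CPM per kb, Xrcc5, a Ku subunit, at 17.7 ± 1.71, and Rpa2, at 17.3 ± 2.18, overlapped each other and lay below the Rpa1 range. The lowest levels per kb were those of the recombinase paralogs Rad51c, at 1.17 ± 0.165 CPM per kb, and Rad51b, at 1.43 ± 0.764 CPM per kb.

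**Figure D1:**
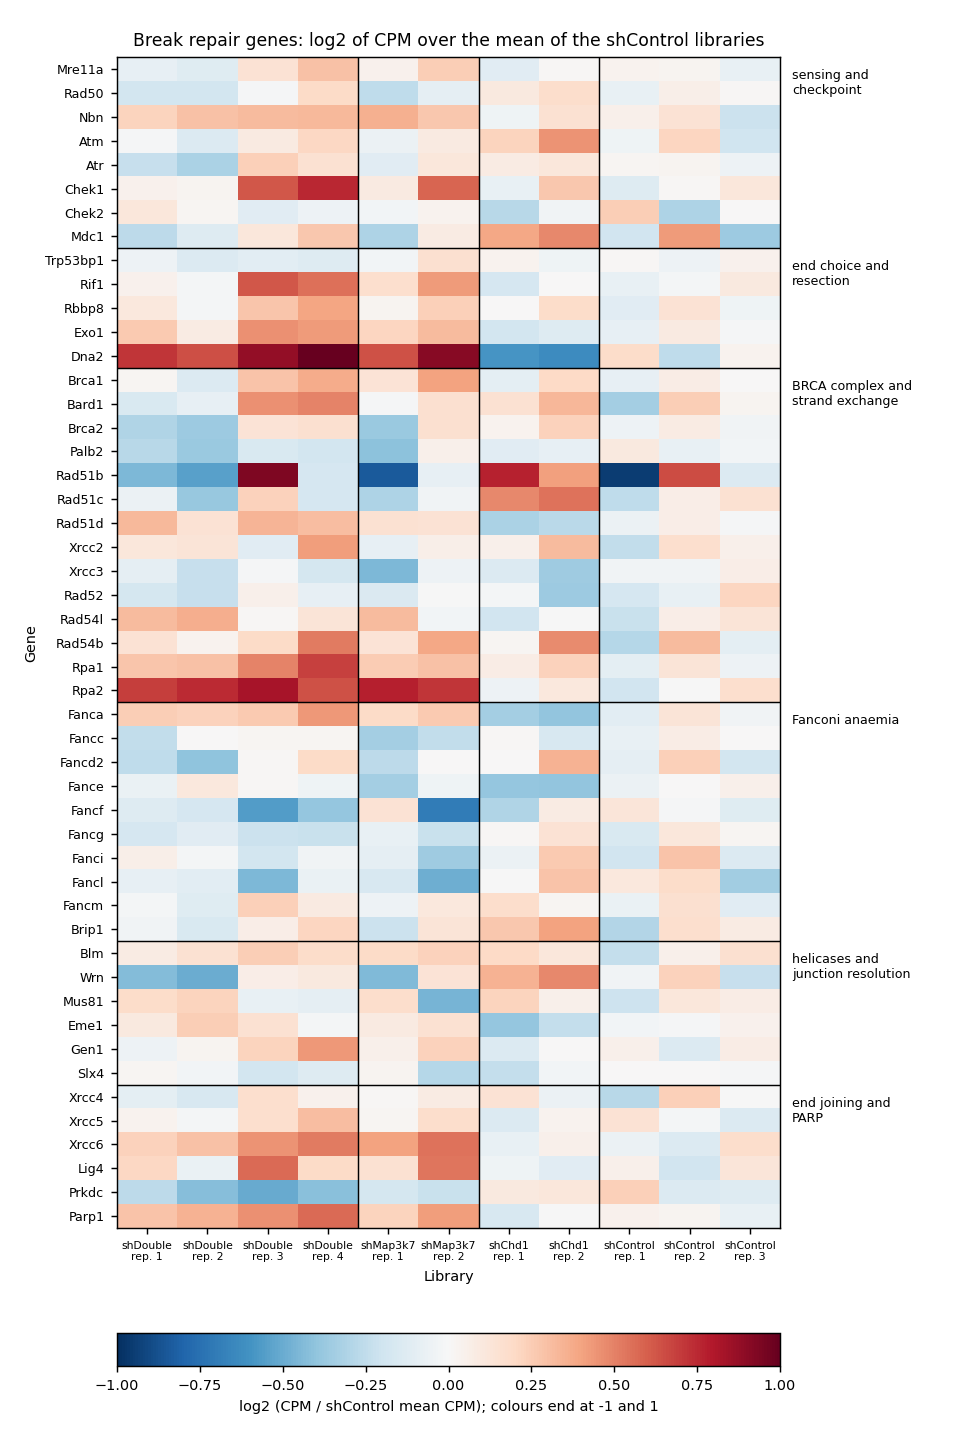
log2 of each library's CPM over the mean CPM of the 3 shControl libraries (colour) for the 49 break repair genes (rows, by role) in the 11 libraries (columns: shDouble, shMap3k7, shChd1, shControl). Dna2 and Rpa2 are red in all 6 libraries of Map3k7 clones, and Chek1 and Rif1 are reddest in the libraries of clone 7, which are shDouble replicates 3 and 4 and shMap3k7 replicate 2.

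Promoter sequences are shown for 5 of the genes on which the results turn: Dna2 and Rpa2, with the largest changes in the Map3k7 clones, Xrcc6, which also changed there, and Brca2 and Chek1, which differed between the clones. They are 300 bases of RefSeq sequence on GRCm38.p6, from 250 bases before the annotated start to 50 bases after it, printed 5′ to 3′ on the strand of the gene. The Dna2 promoter is chr10:62946779-62947078 (+), that of Rpa2 chr4:132768110-132768409 (+), that of Xrcc6 chr15:82016119-82016418 (+), that of Brca2 chr5:150522371-150522670 (+) and that of Chek1 chr9:36726609-36726908 (-). Capitals mark exact matches, on either strand, to 4 words that E2F factors of the cell cycle are known to bind, namely TTCCCGC, then TTCGCGC, then TTGCCGC, and last TTGGCGC.
Dna2 promoter: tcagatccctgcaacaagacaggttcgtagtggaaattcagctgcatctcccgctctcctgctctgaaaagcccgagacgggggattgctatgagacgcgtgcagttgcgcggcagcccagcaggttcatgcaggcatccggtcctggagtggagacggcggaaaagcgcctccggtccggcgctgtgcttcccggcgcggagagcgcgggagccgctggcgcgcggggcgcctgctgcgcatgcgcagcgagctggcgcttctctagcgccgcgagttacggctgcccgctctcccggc
Rpa2 promoter: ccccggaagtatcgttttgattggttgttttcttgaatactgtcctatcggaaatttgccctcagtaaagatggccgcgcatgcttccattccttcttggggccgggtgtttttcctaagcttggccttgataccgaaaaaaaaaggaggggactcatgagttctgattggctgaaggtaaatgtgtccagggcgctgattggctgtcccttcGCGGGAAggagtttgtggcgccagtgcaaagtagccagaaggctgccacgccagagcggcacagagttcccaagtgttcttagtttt
Xrcc6 promoter: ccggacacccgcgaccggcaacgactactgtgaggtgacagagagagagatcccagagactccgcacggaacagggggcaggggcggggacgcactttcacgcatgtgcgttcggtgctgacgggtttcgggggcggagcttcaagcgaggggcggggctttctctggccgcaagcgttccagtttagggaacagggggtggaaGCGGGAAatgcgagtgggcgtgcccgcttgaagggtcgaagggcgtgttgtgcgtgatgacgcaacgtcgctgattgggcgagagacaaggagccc
Brca2 promoter: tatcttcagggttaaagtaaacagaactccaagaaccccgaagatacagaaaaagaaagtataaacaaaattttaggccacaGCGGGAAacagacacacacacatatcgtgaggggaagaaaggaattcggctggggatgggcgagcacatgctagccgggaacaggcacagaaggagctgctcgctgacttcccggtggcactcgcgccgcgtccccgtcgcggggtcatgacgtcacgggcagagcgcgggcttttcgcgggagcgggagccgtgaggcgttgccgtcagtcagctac
Chek1 promoter: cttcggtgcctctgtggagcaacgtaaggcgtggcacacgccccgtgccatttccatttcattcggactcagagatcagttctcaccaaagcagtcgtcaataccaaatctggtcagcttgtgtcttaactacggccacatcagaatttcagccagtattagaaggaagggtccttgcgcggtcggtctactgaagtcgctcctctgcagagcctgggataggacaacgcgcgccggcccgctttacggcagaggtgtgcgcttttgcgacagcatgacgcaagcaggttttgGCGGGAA
RefSeq promoters matched 38 of the 49 genes, with 42 promoters. Of these 42, 21 held an E2F word (50.0%), against 16.3% of the 13098 promoters of tested genes and 9.57% of all 32851 promoters. CCAAT, the box bound by NF-Y, was in 54.8% of the members' promoters and in 37.9% of those of tested genes, searched on both strands, and TTTGAA, the cell cycle homology element, in 7.14% and 12.1%. The Rpa2, Xrcc6, Brca2 and Chek1 windows each held 1 E2F word and the Dna2 window held none, and a match to these letters is a description of the sequence only.

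Both Map3k7 knockdown groups were compared with shControl to ask which genes differ with the Map3k7 hairpin, with or without a Chd1 hairpin. The end-resection nuclease gene Dna2 and the replication protein A gene Rpa2 were higher in both, by close to 0.8 and 0.7 on the log2 scale, and the other changes were smaller. None of the 3 shMap3k7 calls held under every alternative: Dna2 missed the threshold without shMap3k7 replicate 1 (edgeR adjusted p = 0.0526) or 2 (0.106), and Rpa2 without replicate 1 (0.0527). With only the groups compared all 3 calls were lost, at edgeR adjusted p = 0.103 for Dna2, 0.0760 for Rpa2 and 0.156 for Xrcc6. In shDouble 6 of 49 genes rose and 1 fell (14.3%), against 23.8% of all 14346 tested genes, of which 10.2% were higher and 13.6% lower. In shMap3k7 3 of 49 rose and 0 fell (6.12%), against 11.9% of all genes, 4.86% higher and 7.08% lower. With both directions pooled, the shares called were thus below those of all genes in both comparisons. For higher genes alone the members' shares were slightly above those of all genes, and for lower genes alone they were below. At an unadjusted p under 0.05, 9 members were higher and 1 lower in shDouble, against 37.2% of all genes, and 5 higher and 0 lower in shMap3k7, against 29.1%. The ranges of shDouble and shControl were apart for 8 higher and 4 lower members (15.9% and 16.7% of all genes), and those of shMap3k7 and shControl for 15 higher and 4 lower (20.9% and 22.0%). The median log2 fold change of the 49 genes was 0.07 in shDouble and 0.03 in shMap3k7, against 0.00 and -0.01 over all genes. These comparisons use the same 3 control libraries, so their values are given side by side and neither supports the other.

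Among resection genes, Dna2 (ENSMUSG00000036875.15, chromosome 10, 62947026 to 62974185) had 26.0, 24.7, 29.1 and 31.8 CPM in shDouble, 24.6 and 29.7 CPM in shMap3k7, 10.5 and 10.2 CPM in shChd1 and 17.96, 13.2 and 16.2 CPM in shControl. Every library of a Map3k7 clone lay above every other library, and the shChd1 libraries lay below all controls. Relative to shControl, Dna2 rose by 0.82 ± 0.14 on the log2 scale in shDouble (edgeR adjusted p = 0.00276) and by 0.78 ± 0.16 in shMap3k7 (edgeR adjusted p = 0.0145). Without shControl replicate 1 these were 0.92 (edgeR adjusted p = 0.00348) and 0.88 (edgeR adjusted p = 0.0130). Exo1, the other long-range resection nuclease, stood at 49.1, 43.3, 56.3 and 55.0 CPM in shDouble, 47.5 and 51.1 in shMap3k7, 36.1 and 37.5 in shChd1 and 38.8, 43.7 and 40.6 in shControl, and missed the threshold against shControl in shDouble (0.31 ± 0.10, edgeR adjusted p = 0.0526). Exo1 was, without shControl replicate 1, at 0.27 (edgeR adjusted p = 0.136), and with chromosomes centred it was called, at 0.31 (edgeR adjusted p = 0.0199). Rbbp8, which starts resection with the Mre11a complex, was at 40.0 to 53.3 CPM in shDouble, 41.3 and 48.1 CPM in shMap3k7 and 37.6 to 44.96 CPM in shControl, and the ranges overlapped.

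Rpa1 and Rpa2, subunits of replication protein A, rose in shDouble, and Rpa2 rose in shMap3k7 too. The smallest subunit gene, Rpa3, was not called in either (0.41 ± 0.17 in shDouble, edgeR adjusted p = 0.105, and 0.26 ± 0.20 in shMap3k7, edgeR adjusted p = 0.426). Rpa2 (ENSMUSG00000028884.14, chromosome 4, 132768332 to 132778752) had 50.8, 52.7, 55.7 and 48.8 CPM in shDouble, 53.7 and 51.6 CPM in shMap3k7, 30.3 and 33.8 CPM in shChd1 and 27.4, 31.4 and 35.3 CPM in shControl. The 6 libraries of Map3k7 clones lay within 7 CPM of each other and all above the other 5. The log2 fold change was 0.73 ± 0.10 in shDouble (edgeR adjusted p = 0.00116) and 0.75 ± 0.12 in shMap3k7 (edgeR adjusted p = 0.00524), and without shControl replicate 1 it was 0.64 and 0.66. Rpa2 lies on the raised chromosome 4. With each library centred on the median of each chromosome, its log2 fold change was 0.54 in shDouble (edgeR adjusted p = 0.00561) and 0.56 in shMap3k7 (edgeR adjusted p = 0.0187). Rpa1 (chromosome 11, 75298166 to 75348324) had 131, 132, 152 and 174 CPM in shDouble, 129 and 133 CPM in shMap3k7, 114 and 127 CPM in shChd1 and 101, 118 and 105 CPM in shControl. Clone 7 with a Chd1 hairpin held the 2 highest Rpa1 values, and the lowest Map3k7-clone library was only just above the highest shChd1 library. It rose in shDouble (0.45 ± 0.11, edgeR adjusted p = 0.0177), whereas in shMap3k7 it was at 0.27 ± 0.13 (edgeR adjusted p = 0.202). Without shControl replicate 1 the shDouble value of Rpa1 was 0.40 and the call was lost (edgeR adjusted p = 0.0558).

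Of the 6 end joining and PARP genes, 2 rose and 1 fell in shDouble (50.0%, against 23.8% of all genes), and 1 rose in shMap3k7 (16.7%, against 11.9%). Xrcc6, a Ku subunit (ENSMUSG00000022471.14, chromosome 15, 81987835 to 82040085), had 48.0, 50.2, 55.8 and 58.6 CPM in shDouble, 54.1 and 59.6 CPM in shMap3k7, 38.8 and 42.5 CPM in shChd1 and 39.3, 37.1 and 46.3 CPM in shControl. No Map3k7-clone library overlapped the others. Xrcc6 rose by 0.38 ± 0.11 in shDouble (edgeR adjusted p = 0.0296) and by 0.47 ± 0.13 in shMap3k7 (edgeR adjusted p = 0.0373). Without shControl replicate 1 the values were 0.35 (edgeR adjusted p = 0.0789) and 0.45 (edgeR adjusted p = 0.0745), so both calls were lost. Its partner Xrcc5 was not called, at 44.6 to 56.1 CPM in shDouble, 45.8 and 51.2 CPM in shMap3k7 and 41.3 to 50.0 CPM in shControl.

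Prkdc, which encodes DNA-PKcs, the kinase that Ku recruits (chromosome 16, 15637866 to 15842235), had 25.2, 22.5, 21.2 and 22.6 CPM in shDouble, 26.6 and 25.9 CPM in shMap3k7, 32.3 and 32.6 CPM in shChd1 and 35.6, 27.4 and 27.6 CPM in shControl. The shDouble libraries lay below the shMap3k7 libraries and both below all others, and the unnumbered control was the highest of the 11. Prkdc fell by 0.40 ± 0.11 on the log2 scale in shDouble (edgeR adjusted p = 0.0269) and was at -0.20 ± 0.14 in shMap3k7 (edgeR adjusted p = 0.358). Without shControl replicate 1 the shDouble value was -0.26 (edgeR adjusted p = 0.0857) and no longer called. With chromosomes centred it was -0.30 (edgeR adjusted p = 0.0671), chromosome 16 having a median between -0.24 and -0.19 in the clone 7 libraries.

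Parp1, which marks breaks with poly(ADP-ribose) and acts in alternative end joining, had 193, 200, 217 and 234 CPM in shDouble, 185 and 211 CPM in shMap3k7, 141 and 157 CPM in shChd1 and 163, 161 and 150 CPM in shControl. All 6 Map3k7-clone libraries lay above the other 5. Parp1 rose by 0.42 ± 0.09 in shDouble (edgeR adjusted p = 0.0101; 0.0212 without shControl replicate 1) and was at 0.33 ± 0.11 in shMap3k7 (edgeR adjusted p = 0.0786). The shMap3k7 value was 0.35 without shControl replicate 1 (edgeR adjusted p = 0.0996), and with chromosomes centred it was called, at 0.33 (edgeR adjusted p = 0.0285). The difference between those groups, 0.09 ± 0.11, was not called (edgeR adjusted p = 1). Lig4, the ligase of end joining, stood at 16.2 to 25.2 CPM in shDouble, 18.9 and 24.7 CPM in shMap3k7, 15.7 and 16.5 CPM in shChd1 and 14.9 to 18.5 CPM in shControl, with no call against shControl.

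Of the Fanconi anaemia genes, 1 of 10 was called in shDouble (10.0%, against 23.8% of all genes) and 0 of 10 in shMap3k7 (against 11.9%). Fanca, a core complex subunit, had 34.8, 34.5, 35.2 and 39.6 CPM in shDouble, 33.6 and 35.3 CPM in shMap3k7, 23.2 and 22.4 CPM in shChd1 and 27.3, 32.2 and 28.7 CPM in shControl. The libraries formed 3 levels without overlap, with shControl in the middle. It rose by 0.29 ± 0.09 in shDouble (edgeR adjusted p = 0.0429), and this call was lost without shControl replicate 1 (0.24, edgeR adjusted p = 0.121) and with chromosomes centred (0.16, edgeR adjusted p = 0.172). Fanca lies on chromosome 8, whose median was 0.21 to 0.22 above the control mean in clone 7 and at 0.02 to 0.07 in clone 1. It also shares 920 exon bases with Zfp276 on the opposite strand, and the strand setting of the counting is not given in the sources used here, so reads of these genes may not have been told apart.

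Nbn, the third subunit of the sensor complex, and Rad51d, a recombinase paralog, also lay above all 5 other libraries in all 6 Map3k7-clone libraries without passing the test. Nbn had 39.1, 41.0, 41.6 and 41.8 CPM in shDouble, 42.6 and 40.2 CPM in shMap3k7, 32.5 and 37.1 CPM in shChd1 and 34.6, 36.9 and 28.7 CPM in shControl (shDouble against shControl 0.29 ± 0.10, edgeR adjusted p = 0.0620; 0.10 with chromosomes centred, on chromosome 4). Rad51d had 17.7, 15.6, 17.8 and 17.5 CPM in shDouble, 15.7 and 15.6 CPM in shMap3k7, 11.3 and 11.7 CPM in shChd1 and 13.5, 14.8 and 14.01 CPM in shControl (0.28 ± 0.10, edgeR adjusted p = 0.0684). With chromosomes centred Rad51d was called, at 0.29 (edgeR adjusted p = 0.0379). The shDouble values without shControl replicate 1 were 0.32 for Nbn (edgeR adjusted p = 0.0875) and 0.25 for Rad51d (edgeR adjusted p = 0.150). In all, 8 of 49 genes stood above and 1 below all controls in every library of both clones, against 13.7% and 14.6% of all tested genes.

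**Figure D2:**
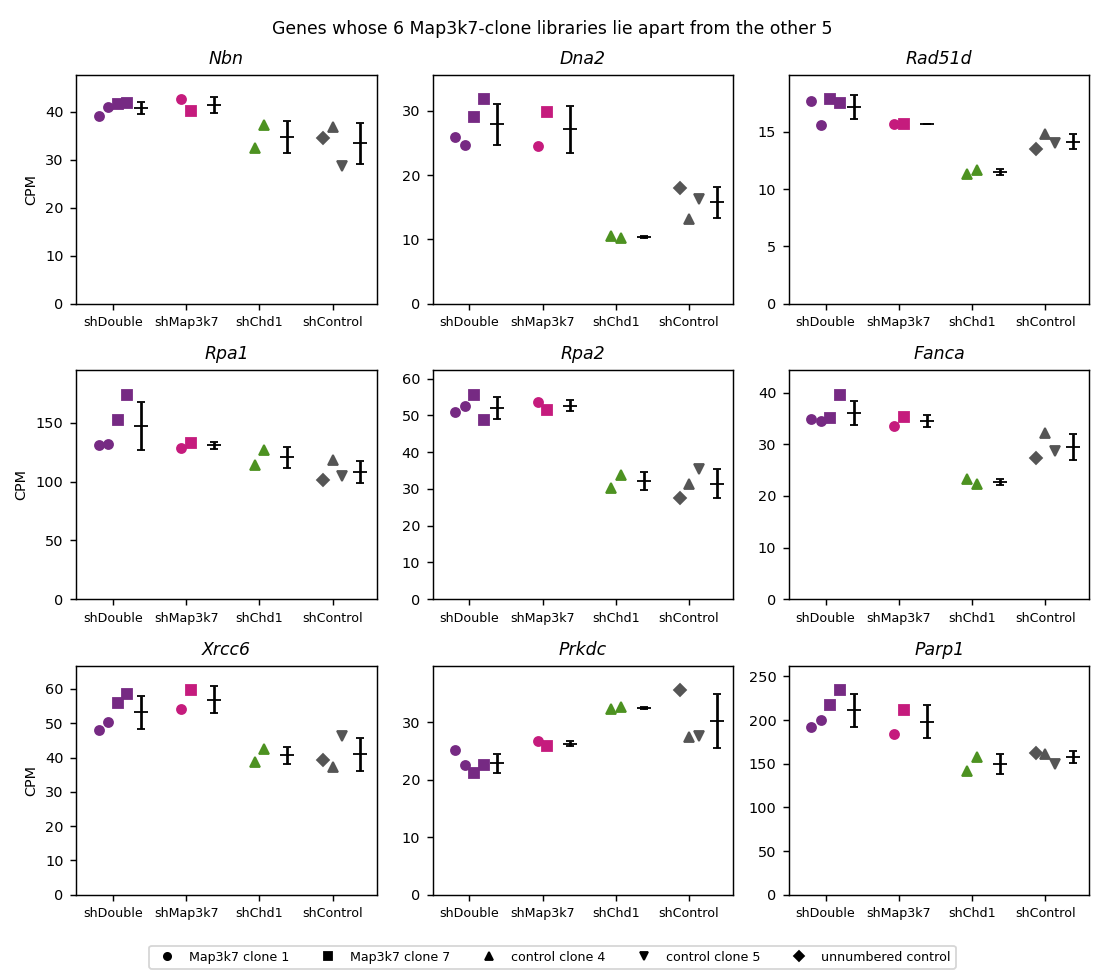
CPM per library (vertical axes, from 0) of the 9 genes whose 6 libraries of Map3k7 clones did not overlap the other 5, by group (horizontal axes: shDouble, shMap3k7, shChd1, shControl). The share of all tested genes apart from the other 5 in this way was not computed. Marker shapes give the line and black bars the group mean ± SD, with n of 4, 2, 2 and 3. Dna2, Rpa2, Rpa1, Xrcc6, Parp1, Fanca, Nbn and Rad51d lie higher and Prkdc lower in the Map3k7 clones.

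The question of what the Chd1 hairpins added was asked in several ways. Between shDouble and shMap3k7, 0 of 49 break repair genes and 0 of all 14346 genes (0%) were called by edgeR. At an unadjusted p under 0.05 it was 0 of 49 members and 0.802% of all genes. This fit had no term for the clone, so the differences between the clones, which both groups share, counted as spread. Small differences due to the Chd1 hairpins could therefore be missed in it. The log2 fold changes of the members ran from -0.20 for Prkdc to 0.49 for Rad51b, and 48 of the 49 95% intervals lay within 1 of 0 on the log2 scale and 36 within 0.5. Prkdc and Trp53bp1 were the only members whose shDouble and shMap3k7 libraries did not overlap, both lower in shDouble, against 3.15% of all genes lower and 3.56% higher.

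Within lines, each of control clone 4, Map3k7 clone 1 and Map3k7 clone 7 gave 2 libraries with a Chd1 hairpin and 1 without, so the hairpin is not confounded with the clone. Fitted with the line as a term, 0 of 49 genes were called, against 0.0279% of all genes (4 genes), and 0 of 49 passed an unadjusted p under 0.05, against 4.96% of all genes. No member had its 6 hairpin libraries apart from the 3 without, against 0.188% of all genes higher and 0.188% lower. The DESeq2 Wald test also called 0 members. The smallest edgeR adjusted p was 0.938. Log2 fold changes ran from -0.13 for Fanca to 0.26 for Rad51b. All 49 of the 95% intervals lay within 1 of 0 and 47 within 0.5, so at the Chd1 levels reached in these lines a 2-fold change of any of these genes lay outside its interval. Rad50, the structural subunit of the sensor complex, was the only member higher in all 6 hairpin libraries than in its own line, by 0.07, 0.07, 0.08 and 0.28 in shDouble replicates 1 to 4 and by 0.04 and 0.12 in shChd1 replicates 1 and 2, and no member was lower in all 6 (of all genes, 4.2% and 3.4%).

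Lines differed in direction for some members. Fanca was 0.47 and 0.52 lower on the log2 scale in the shChd1 libraries than in control clone 4, whereas shDouble replicates 1, 2 and 4 were 0.05, 0.04 and 0.17 above their own clones and replicate 3 was level with its clone. Dna2 behaved likewise, at -0.33 and -0.37 in control clone 4 and at 0.08, 0.01, -0.03 and 0.10 in the Map3k7 clones. Such a dependence on Map3k7 knockdown was tested as the interaction, which is the shDouble less shMap3k7 difference minus the shChd1 less shControl difference. Unlike the values within lines, the interaction used group means with no term for the line. Its shChd1 less shControl part thus also holds the differences between control clone 4 and the other control lines. No break repair gene and no gene at all (0%) passed the interaction test by edgeR. At an unadjusted p under 0.05 it was 4 of 49 members, all positive, against 13.9% of all genes: Fance (0.58 ± 0.16, edgeR adjusted p = 0.215), Fanca (0.43 ± 0.15, edgeR adjusted p = 0.279), Dna2 (0.64 ± 0.23, edgeR adjusted p = 0.279) and Rad51d (0.43 ± 0.17, edgeR adjusted p = 0.310). Leaving out shControl replicate 1, these were 0.61, 0.48, 0.54 and 0.46, with edgeR adjusted p from 0.327 to 0.431.

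**Figure D3:**
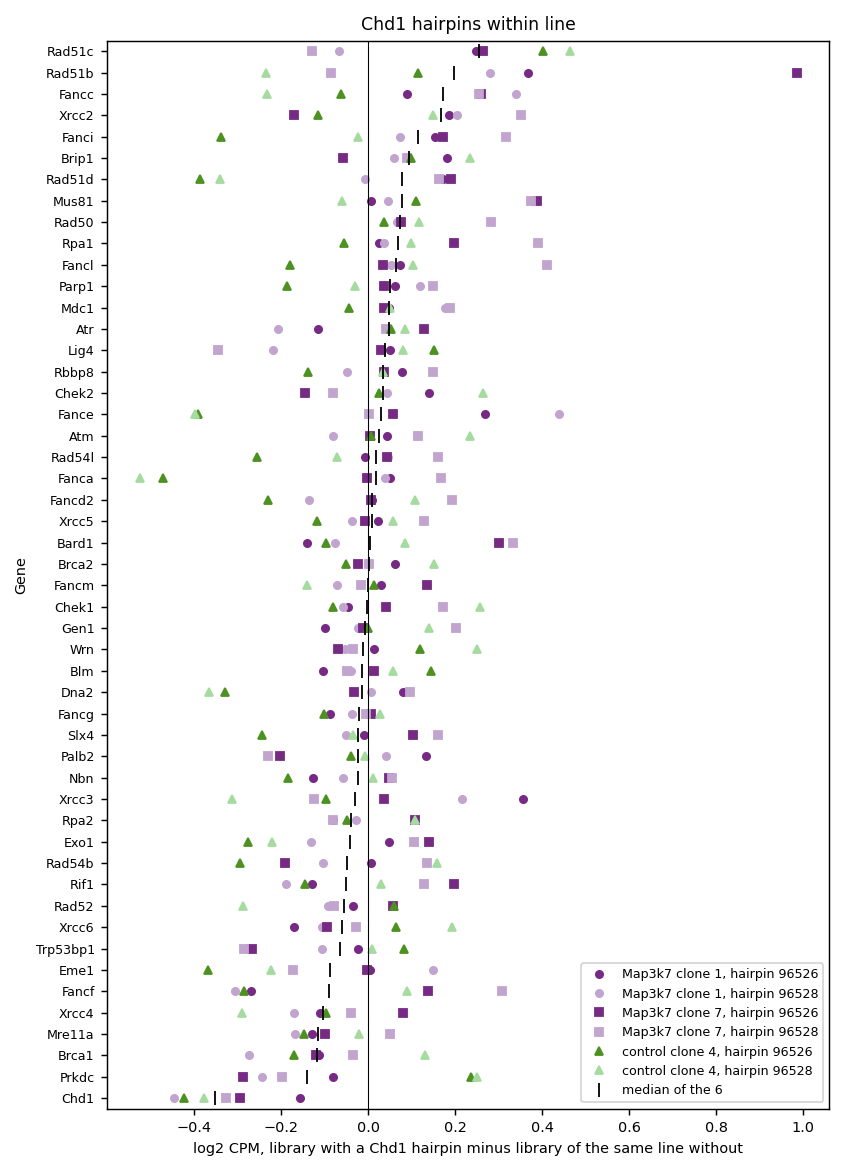
log2 CPM of each library with a Chd1 hairpin minus the library of the same line without one (horizontal axis) for the 49 break repair genes and Chd1 (rows, by the median of the 6 values). Circles and squares are Map3k7 clones 1 and 7 and triangles control clone 4, dark for construct 96526 and light for 96528. Chd1 is lower in all 6, with the lowest median, and most break repair genes scatter on both sides of 0.

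Against the 3 controls, shChd1 had 0 of 49 members called by edgeR, against 2.91% of all genes, 0.662% higher and 2.24% lower. The ranges were apart for 6 higher and 9 lower members, against 23.1% and 23.4% of all genes. At an unadjusted p under 0.05 it was 1 higher and 5 lower of 49, against 25.1% of all genes, and the DESeq2 Wald test called 3 lower, Dna2, Fanca and Fance. The shChd1 libraries were all made in control clone 4, so the clone and the Chd1 hairpin are separated only by shControl replicate 2. Dna2 was at -0.61 ± 0.17 (edgeR adjusted p = 0.0732), and its level in shControl replicate 2, the same clone, was the lowest of the controls. Dna2 lies on chromosome 10, where the median of all genes was -0.21 and -0.22 in the shChd1 libraries and -0.14 in shControl replicate 2; with chromosomes centred its value was -0.40 (edgeR adjusted p = 0.0855). Fance, a core complex subunit, had 21.2 and 21.1 CPM in shChd1 and 26.7, 27.8 and 28.7 CPM in shControl (-0.39 ± 0.12, edgeR adjusted p = 0.0836). Fanca was at -0.37 ± 0.11 (edgeR adjusted p = 0.0867). Rad51d and Eme1, a subunit of the Mus81 nuclease, were at -0.30 ± 0.12 and -0.31 ± 0.13, and Atm, the apical kinase, at 0.34 ± 0.15. Leaving out shControl replicate 1, Dna2 was at -0.50 (edgeR adjusted p = 0.176), Fance and Fanca both at -0.42, Rad51d at -0.33, Eme1 at -0.32 and Atm at 0.32, none called. Without shControl replicate 2, 3 members were called: Dna2 (-0.72, edgeR adjusted p = 0.0145) and Atm (0.46, edgeR adjusted p = 0.0496) were among them.

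Between shDouble and shChd1, groups that share Chd1 hairpins and differ in the Map3k7 hairpin and in the clone, 9 of 49 genes rose and 3 fell (24.5%), against 44.8% of all genes, 22.6% higher and 22.2% lower. The ranges were apart for 12 higher and 10 lower members, against 31.8% and 31.9%. The largest rise was that of Dna2 (1.43 ± 0.17, edgeR adjusted p = 0.000183). Rpa2 rose by 0.70 ± 0.12, Fanca by 0.66 ± 0.11, Rad51d by 0.58 ± 0.12, Parp1 by 0.50 ± 0.11, Exo1 by 0.47 ± 0.12, Fance by 0.40 ± 0.11 and Xrcc6 by 0.39 ± 0.12. Eme1 rose too, with 14.7, 16.2, 15.2 and 13.5 CPM in shDouble and 10.5 and 11.6 CPM in shChd1 (0.43 ± 0.12, edgeR adjusted p = 0.0170). Prkdc fell by 0.50 ± 0.13, Rad51c fell by 0.59 ± 0.22 and the RecQ helicase gene Wrn fell by 0.59 ± 0.22. Rad51c, with 4.42, 3.53, 5.41 and 4.10 CPM in shDouble and 6.40 and 6.70 CPM in shChd1, and Wrn, with 17.6, 16.8, 24.8 and 25.4 CPM in shDouble and 30.2 and 33.1 CPM in shChd1, lay close to the threshold (edgeR adjusted p = 0.0489 and 0.0479). Dna2, Rpa2, Fanca and Rad51d were called under every alternative tried.

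Of the 8 comparisons, that between the Map3k7 clones themselves called the largest share of these genes. In the 6 libraries of Map3k7 clones, with the Chd1 construct as a term, 22 of 49 genes were lower in clone 1 than in clone 7 and 2 were higher (49.0%), against 32.7% of all genes, 14.9% lower and 17.7% higher. The ranges of the clones were apart for 28 lower and 5 higher members, against 22.1% and 23.3% of all genes. The median log2 fold change of the 49 genes was -0.20, against 0.00 over all genes. The libraries of a clone are not replicates of clones, so these values describe 2 clones. The 8 genes called under all 11 alternatives, Atr, Chek1, Mdc1, Rif1, Brca1, Bard1, Brca2 and Wrn, were all lower in clone 1.

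Among checkpoint genes, Chek1, the kinase downstream of ATR (ENSMUSG00000032113.16, chromosome 9, 36708482 to 36727065), had 22.6, 22.4 and 23.3 CPM in clone 1 (shDouble replicates 1 and 2, then shMap3k7 replicate 1) and 33.8, 36.9 and 32.8 CPM in clone 7 (shDouble replicates 3 and 4, then shMap3k7 replicate 2). Control libraries were at 20.1, 22.1 and 23.7 CPM, so clone 1 lay among them and clone 7 above. The log2 fold change of clone 1 over clone 7 was -0.60 ± 0.07 (edgeR adjusted p = 0.00123). Atr itself had 38.7, 36.3 and 41.9 CPM in clone 1 and 53.5, 50.4 and 48.9 CPM in clone 7 (-0.39 ± 0.07, edgeR adjusted p = 0.00535), with controls between at 43.8 to 46.3 CPM. It shares 726 exon bases with an antisense transcript, 1700065D16Rik. Mdc1, the adaptor that binds marked chromatin at breaks, had 41.4, 45.3 and 40.1 CPM in clone 1 and 53.8, 59.7 and 52.4 CPM in clone 7 (-0.39 ± 0.06, edgeR adjusted p = 0.00251). Its controls ran from 38.5 CPM to 66.8 CPM, wider than either clone. Mre11a (-0.28 ± 0.07) and Rad50 (-0.24 ± 0.07) were also lower in clone 1, whereas Nbn was not called (-0.01 ± 0.06, edgeR adjusted p = 0.887).

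Among genes of end choice, Rif1, which with Trp53bp1 holds back resection, had 134, 129 and 146 CPM in clone 1 and 200, 191 and 175 CPM in clone 7 (-0.47 ± 0.07, edgeR adjusted p = 0.00262). Clone 7 lay above the controls, at 123 to 139 CPM, and clone 1 overlapped them. Trp53bp1 did not differ past the threshold, with a 95% interval of -0.20 to 0.11. The resection genes Dna2 (-0.27 ± 0.07), Rbbp8 (-0.27 ± 0.07) and Exo1 (-0.22 ± 0.07) were lower in clone 1, and all 3 calls were lost with chromosomes centred.

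In the BRCA complex, Brca2 (ENSMUSG00000041147.10, chromosome 5, 150522630 to 150570329) had 63.5, 60.9 and 60.8 CPM in clone 1 and 86.4, 87.8 and 87.7 CPM in clone 7 (-0.50 ± 0.06, edgeR adjusted p = 0.000896). The values within a clone lay within 3 CPM, and the controls, at 75.8 to 83.1 CPM, lay between the clones. Chromosome 5 as a whole ran the other way, with a median of 0.23 for clone 1 over clone 7, and with chromosomes centred Brca2 was at -0.73. Brca1 had 63.1, 56.4 and 68.2 CPM in clone 1 and 75.6, 80.3 and 82.2 CPM in clone 7 (-0.35 ± 0.07, edgeR adjusted p = 0.00771). Its partner Bard1 had 27.0, 28.3 and 29.8 CPM in clone 1 and 41.2, 42.2 and 33.4 CPM in clone 7 (-0.46 ± 0.09, edgeR adjusted p = 0.00836). Both separated the clones without overlap. Palb2, which joins BRCA1 to BRCA2, was not called. Rad54l, a motor protein of strand exchange, was higher in clone 1, at 25.8, 26.8 and 25.9 CPM against 21.0, 22.7 and 20.3 CPM in clone 7 (0.29 ± 0.07, edgeR adjusted p = 0.0186), but it lies on chromosome 4, and with chromosomes centred it was at 0.07 (edgeR adjusted p = 0.561).

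Of the Fanconi anaemia genes, Fancd2, the ubiquitinated effector, had 25.7, 23.3 and 25.5 CPM in clone 1 and 30.9, 35.1 and 30.7 CPM in clone 7 (-0.38 ± 0.09, edgeR adjusted p = 0.0141), and Fancm was lower too (-0.21 ± 0.07). Both calls were lost with chromosomes centred (Fancd2 -0.28, edgeR adjusted p = 0.0577, and Fancm -0.11, edgeR adjusted p = 0.253). Among helicases, Wrn had 17.6, 16.8 and 17.4 CPM in clone 1 and 24.8, 25.4 and 26.0 CPM in clone 7 (-0.55 ± 0.08, edgeR adjusted p = 0.00186). Clone 1 lay below all 3 controls, at 20.2 to 27.8 CPM, and clone 7 among them. Wrn and Lig4 lie on chromosome 8, whose median was -0.17 for clone 1 over clone 7, and with chromosomes centred Wrn was at -0.38 (edgeR adjusted p = 0.0117). The nuclease gene Mus81, on the raised chromosome 19, was higher in clone 1, at 16.9, 17.4 and 16.8 CPM against 14.2, 14.02 and 10.8 CPM in clone 7 (0.39 ± 0.10, edgeR adjusted p = 0.0244), and was not called with chromosomes centred (0.21, edgeR adjusted p = 0.204). Among end joining genes, Lig4, Xrcc5, Xrcc6 and Parp1 were lower in clone 1, by log2 values of -0.34 ± 0.08, -0.21 ± 0.07, -0.19 ± 0.06 and -0.20 ± 0.05. None of these 4 calls held with chromosomes centred, where 14 genes were called, all lower in clone 1.

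**Figure D4:**
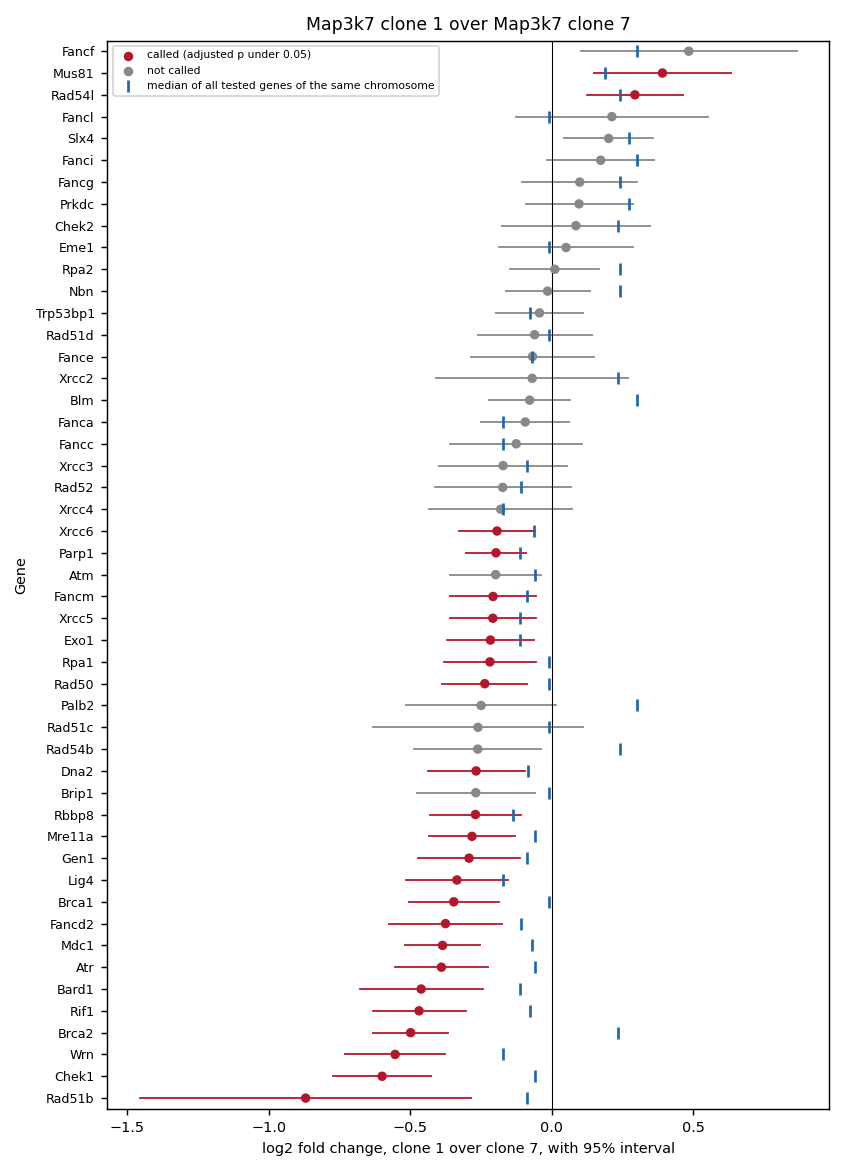
log2 fold change of Map3k7 clone 1 over Map3k7 clone 7 with 95% interval (horizontal axis) for the 49 break repair genes (rows, highest at the top), red where called and grey where not. Blue ticks mark the median of all tested genes on the same chromosome. The 22 genes called lower lie left of 0, and Brca2 lies at -0.50 with its chromosome at 0.23.

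Most tested markers of DNA replication and mitosis moved with the same clones. Of 30 tested markers 4 were higher and 17 lower in clone 1 than in clone 7 (70%). Of all genes 32.7% were called, 17.7% higher and 14.9% lower. The markers' log2 values ran from -0.52 to 0.27 (median -0.19), 22 below 0 and 8 above. Among those lower were Top2a, a topoisomerase (-0.44 ± 0.04), and Pcna, the replication clamp (-0.41 ± 0.05). Mki67 and Plk1 ran the other way, with each clone 1 library above every clone 7 library in CPM. The summed level of the 30 markers was 6216 and 6481 CPM in shDouble and 6378 CPM in shMap3k7 for clone 1, 7072 and 7574 CPM in shDouble and 6882 CPM in shMap3k7 for clone 7, 5259 and 6027 CPM in shChd1 and 5354 to 6437 CPM in shControl. The summed level of the 49 break repair genes was 1797, 1766 and 1801 CPM in clone 1, 2075, 2158 and 2012 CPM in clone 7, 1710 and 1862 CPM in shChd1 and 1670, 1818 and 1707 CPM in shControl. Clone 7 held the 3 highest libraries in both sums. Against shControl, 4 of the 30 markers rose in shDouble and 0 fell (median 0.18), or 13.3%, against 23.8% of all genes. In shMap3k7 1 rose and 0 fell (median 0.12), or 3.33%, against 11.9%. In shChd1 0 rose and 2 fell (median -0.13), or 6.67%, against 2.91%. Without shControl replicate 1 no marker was called in shChd1, Plk1 coming nearest (-0.68, edgeR adjusted p = 0.0755). That fit called Kif11 (0.55, edgeR adjusted p = 0.0102) and Mcm3 (0.39, edgeR adjusted p = 0.0303) in shDouble. In shMap3k7 it called Kif11 only (0.50, edgeR adjusted p = 0.0364). Between shDouble and shChd1, 12 were higher and 0 lower in shDouble (median 0.31), or 40%, against 44.8%. The part of cell cycle composition in the differences of the break repair genes was not tested.

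**Figure D5:**
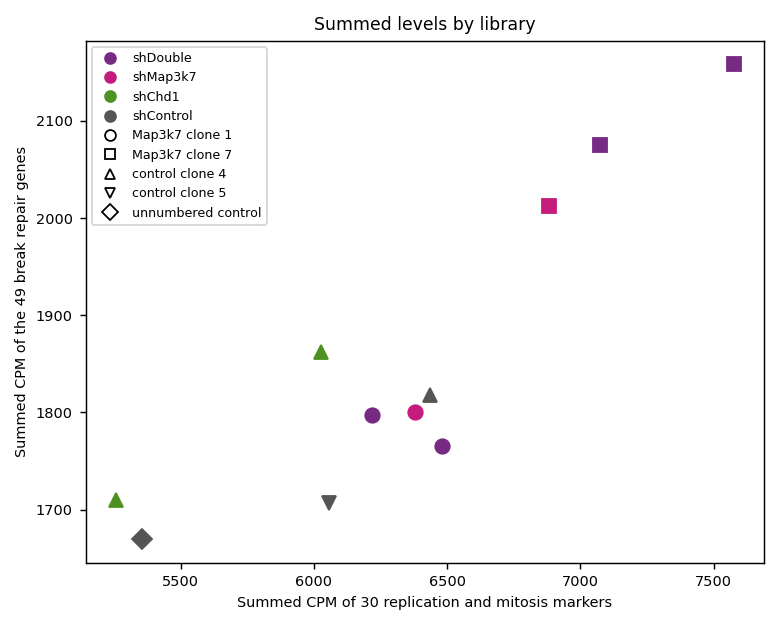
Summed CPM of the 49 break repair genes (vertical axis) against summed CPM of 30 replication and mitosis markers (horizontal axis), 1 point per library; both axes start above 0. The libraries of clone 7 (squares) lie at the top right, those of clone 1 (circles) among shChd1 and shControl.

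A wider list of 58 other tested break repair and damage response genes gave 8 higher and 1 lower in shDouble against shControl (median 0.10), 4 higher and 2 lower in shMap3k7 (median 0.09), 0 and 1 in shChd1 (median -0.03), 18 and 4 in shDouble against shChd1 (median 0.11), 0 between shDouble and shMap3k7, 0 within lines and 11 higher and 13 lower in clone 1 against clone 7 (median -0.10). As shares these were 15.5% in shDouble against shControl, 10.3% in shMap3k7, 1.72% in shChd1, 37.9% in shDouble against shChd1 and 41.4% between the clones, against 23.8%, 11.9%, 2.91%, 44.8% and 32.7% of all genes. Rad9a, a subunit of the checkpoint clamp, had 34.2, 30.7, 37.0 and 34.9 CPM in shDouble, 34.2 and 34.6 CPM in shMap3k7, 17.8 and 17.4 CPM in shChd1 and 20.4, 21.3 and 21.2 CPM in shControl. Its Map3k7-clone libraries lay well above all others (shDouble 0.71 ± 0.09, edgeR adjusted p = 0.000685; shMap3k7 0.72 ± 0.10, edgeR adjusted p = 0.00338), and it lies on chromosome 19, whose median was 0.27 to 0.48 above the control mean in these clones. Clspn, the adaptor through which ATR activates CHK1, rose by 0.57 ± 0.10 in shDouble and 0.45 ± 0.12 in shMap3k7, and Usp1, the deubiquitinase of FANCD2, rose by 0.53 ± 0.11 in shDouble. Both lie on chromosome 4. Cdk12, a kinase required for transcription of long repair genes, rose by 0.38 ± 0.08 in shDouble. Polm, a polymerase of end joining, fell by 1.02 ± 0.25 on the log2 scale in shMap3k7 (edgeR adjusted p = 0.0263), where it had 23.98 and 22.00 CPM, against 43.9, 64.9 and 31.5 CPM in shControl. Nabp2, which encodes a single-strand binding protein, was the gene called in shChd1, with 33.0 and 30.8 CPM, against 67.0, 41.3 and 60.1 CPM in shControl (-0.81 ± 0.17, edgeR adjusted p = 0.0420). Leaving out shControl replicate 1, the calls of Clspn in shMap3k7 (0.38, edgeR adjusted p = 0.0685) and Nabp2 in shChd1 (-0.67, edgeR adjusted p = 0.108) were lost, while those of Rad9a, Polm in shMap3k7, and Clspn, Usp1 and Cdk12 in shDouble held. As with Dna2, shControl replicate 2 of the same clone was the lowest control, and Nabp2 too lies on chromosome 10.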

How the data were processed

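RNA was taken a day after plating, selected with oligo(dT) and primed with random hexamers, per the labels' protocols. The deposited count table holds expected counts, that is, read counts per gene estimated by the authors with RSEM 1.3.1 and not normalized, per the submitters' processing notes, which also name Bowtie2, limma and GRCm38; the sources used here do not give annotation or strand setting. A second deposited table holds normalized log2 values, equal to log2 of (count + 0.5) over a scaled library size to within 5.02e-09. The log2 table was used only for the limma alternative.

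Counts were rounded and tested in R 4.3.3 with edgeR 4.0.16: TMM factors, filterByExpr (minimum count 10, minimum total 15), its quasi-likelihood test, and p-values adjusted by Benjamini-Hochberg across 14346 genes, with calls made at an adjusted p below 0.05. The comparisons between groups used 4 group means over all 11 libraries. The within-line fit had the line as a term (9 libraries) and the clone fit the Chd1 construct (6 libraries). Of the members, per-library values are given for those with the smallest p over the 8 comparisons, up to 24, and others are named with values chosen after they were seen. CPM values are TMM-scaled, errors of log2 fold changes are SE, and levels per kb use the principal GENCODE transcript length. Coordinates are GRCm38, counted from 1. All 49 members passed the filter. Of the 49, 23 share exon bases with another annotated gene, 21 of them on the opposite strand. The members and lists were chosen with earlier results of these data known. Totals were 14132371 to 23163709 counts, so 3 counts stood for 0.133 to 0.217 CPM. No 2 libraries of a group agreed within sampling noise (lowest chi-square per degree of freedom 8.46 over 11 pairs). Same-clone libraries of shMap3k7 and shDouble deviated together (r = 0.571 across genes between their clone differences). Alternatives were DESeq2 1.42.0 factors and Wald test, limma 3.58.1, no filter, only the groups compared, the line or, for shDouble against shChd1, the Chd1 construct as a replicate block, centring by chromosome and leaving out each library. The scripts were tested on simulated data.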

Additional observations from a re-analysis of the deposited data

Results flagged for a closer look

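In the 4 shDouble libraries, 5 of the 49 break repair genes had a library far from the rest, where chance flags about 1 in 20 groups of exchangeable replicates. The 4 libraries are not such replicates, being 2 clones with 2 constructs each, so that rate does not apply to them as it stands. The share of all tested genes flagged in this way was not computed, so the count of members has no background to be read against. The gap from that library to its neighbour, as a share of the range of the 4, was 0.94 for Fancc, where replicate 1 was low at 11.97 CPM and the others were at 14.3 to 14.4 CPM. It was 0.887 for Fancl, where replicate 3 was low at 5.41 CPM and the others were at 6.88 to 7.07 CPM. For Fanca it was 0.876, where replicate 4 was high at 39.6 CPM and the others were at 34.5 to 35.2 CPM. For Rad51d it was 0.855, where replicate 2 was low at 15.6 CPM and the others were at 17.5 to 17.8 CPM. For Rad51b it was 0.834, where replicate 3 was high at 5.98 CPM and the others were at 2.16 to 2.79 CPM. The libraries concerned are not the same, and no interaction of the knockdowns was called for any of the 49 genes.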

How the results depend on the processing

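Counts of break repair genes called changed under some alternatives; the causes were not tested except where fewer libraries entered. With only the groups compared, shMap3k7 had 0 (main 3) and shDouble against shControl 4 (main 7). The DESeq2 Wald test gave 3 for shChd1 against shControl (main 0) and 11 for clone 1 against clone 7 (main 24), where centring by chromosome gave 14. Leaving out each library gave 0 (without shMap3k7 replicate 1) to 3 for shMap3k7, with 1 without shMap3k7 replicate 2. It gave 0 to 3 (without shControl replicate 2) for shChd1, 3 (without shControl replicate 1) to 7 for shDouble against shControl, with 4 without shDouble replicate 3 or 4, and 5 (without either shChd1 replicate) to 11 for shDouble against shChd1. For the clones it gave 9 (without shDouble replicate 1 or 3) to 26, with 13 and 12 without shDouble replicates 2 and 4. A sample left alone in a group is assumed to vary like the others.

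Only Slx4 in the clone comparison reversed, at -0.070 with chromosomes centred and 0.20 (edgeR adjusted p = 0.054, not called) without. Of the single-gene values under alternatives, 804 kept direction and call, 159 lost the call and 20 gained it. With the line as a replicate block, 0 of 49 genes were called for shChd1 against shControl, shDouble against shMap3k7 and the interaction, as without it. With the Chd1 construct as a replicate block, an alternative chosen after seeing the data, 9 of 49 were called for shDouble against shChd1 (main 12), Rad51c, Wrn and Eme1 being lost. No paired analysis was possible for shMap3k7 or shDouble against shControl because those groups share neither line nor Chd1 construct. The all-gene counts ranged more widely, from 194 to 2609 for shMap3k7 (main 1712) and 0 to 2641 for shChd1 (main 417) over the alternatives.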

Other observations

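Of 15 tested p53 and checkpoint target genes, 11 were higher and 1 lower in Map3k7 clone 1 than in clone 7 (median log2 0.47), against 17.7% and 14.9% of all tested genes. Bax, an apoptosis effector, was at 0.72 ± 0.05 (edgeR adjusted p = 0.000110), Sesn2, a stress-induced inhibitor of growth signalling, at 0.94 ± 0.08 (edgeR adjusted p = 0.000345), and Phlda3 at 0.62 ± 0.06 (edgeR adjusted p = 0.000437). Aen, a nuclease gene, was at 0.57 ± 0.05 (edgeR adjusted p = 0.000485). The summed level of the 15 genes was 1689, 1569 and 1729 CPM in clone 1, 1269, 1138 and 1394 CPM in clone 7, 1082 and 829 CPM in shChd1 and 1083 to 1463 CPM in shControl. Clone 1 was the highest in this sum and clone 7 overlapped the controls. Bax and Aen lie on chromosome 7, whose median was 0.30 for clone 1 over clone 7. The part of such chromosome shifts was not tested for any of the 15 genes. Against shControl, 1 of the 15 rose in each of shDouble and shMap3k7 (6.67%, against 23.8% and 11.9% of all genes called). It was Plk3, a stress-responsive kinase (0.91 ± 0.21 and 0.91 ± 0.24). Without shControl replicate 1 these were 0.85 (edgeR adjusted p = 0.0370) and 0.84 (edgeR adjusted p = 0.0784).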
